A study of Mus musculus with 8 samples.

Results

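Smooth muscle cells and myofibroblasts are recognised by the proteins of their contractile apparatus. In whole kidney of NEKO mice and their controls, 8 genes of these cells were read, 6 of them coding for contractile or cytoskeletal proteins (Acta2, Actg2, Myh11, Cnn1, Tagln and Des) and 2 for receptors of platelet-derived growth factor (PDGF; Pdgfrb and Pdgfra). The genes were chosen by name. The array carried 12 probes for them, 3 for Acta2, 2 each for Tagln and Pdgfra and 1 for each of the other 5 genes, matched through their RefSeq accessions. All 8 genes passed the filter on dim probes, and they were 8 of the 13570 named genes tested, which with 6023 unnamed transcripts made 19593 in all.

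Kidney RNA was collected at 8 weeks of age from 4 NEKO and 4 control mice of a mixed 129Sv/J and C57BL/6J background, each group with 2 females and 2 males. NEKO mice (Keap1-/-::Nrf2Flox/Flox::K5-Cre) lack both copies of Keap1, which codes for the protein that marks the transcription factor Nrf2 for degradation. Of the controls, 3 were K1Cre (Keap1+/-::Nrf2Flox/Flox::K5-Cre) and 1, the female of replicate 1, was K1 (Keap1+/-::Nrf2Flox/Flox), without Cre. All 8 mice thus carried floxed Nrf2 alleles and at least 1 disrupted copy of Keap1, and no wild-type mouse was among them. The K5-Cre transgene is driven by the keratin 5 promoter, which is active in the basal cells of stratified epithelia, so that Nrf2 is deleted there and not throughout the kidney. All females were hybridised on 1 slide and all males on another, and the effects of sex and slide cannot be told apart.

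Each array measured 1 mouse in 1 colour, and a level is given here as log2 of the background-corrected signal, less the 75th percentile of the probes on that array. A value of 0 therefore lies at that percentile, and a difference of 1 is a doubling. Between 61.7% and 65.7% of the probes on an array were well above background and no spot was saturated. Keap1 itself ranged from 1.77 to 1.92 in controls and from 0.06 to 0.45 in NEKO mice, and Nqo1, a target gene of Nrf2, from 1.24 to 2.46 and from 3.89 to 5.45, so no mouse went against its label. Defining markers of the kidney were present, with 6 of 6 proximal tubule genes and 5 of 5 podocyte genes above background. Since whole kidney was used, fewer cells of a type and less RNA per cell cannot be told apart.

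In smooth muscle, force comes from myosin, whose heavy chain is the product of Myh11, pulling on filaments of the smooth muscle actins, the products of Acta2 and Actg2. Calponin (Cnn1) and transgelin (Tagln) bind these actin filaments, and desmin (Des) forms the intermediate filaments that tie the contractile units together. Pdgfrb is the receptor that pericytes, mesangial cells and vascular smooth muscle cells use to answer PDGF-B, and Pdgfra marks interstitial fibroblasts. In the kidney these genes are known from the walls of arteries and of the pelvis, from the mesangium and from the interstitium, and Acta2 is the standard marker of myofibroblasts in fibrosis.

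Many smooth muscle genes are controlled by serum response factor, which binds a DNA element called the CArG box, written CCNNNNNNGG with A or T at the inner positions. The upstream 250 bases of 4 of the genes, Acta2, Cnn1, Des and Pdgfra, were searched in RefSeq sequence of build GRCm38.p6 for this element with at most 1 G or C among its 6 inner bases. The element is read the same way on both strands. The Acta2 window (chr19:34255374-34255623, minus strand) held 2 matches, beginning 84 and 34 bases before the transcription start, and is shown 5′ to 3′ with the matches in capitals.

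Acta2: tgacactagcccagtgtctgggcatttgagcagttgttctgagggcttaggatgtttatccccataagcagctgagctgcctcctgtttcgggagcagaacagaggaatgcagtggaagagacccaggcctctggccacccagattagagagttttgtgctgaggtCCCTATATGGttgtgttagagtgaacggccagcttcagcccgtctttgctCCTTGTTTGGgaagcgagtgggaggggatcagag

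The windows of Cnn1 (chr9:22099003-22099252, plus strand), Des (chr1:75360042-75360291, plus strand) and Pdgfra (chr5:75152001-75152250, plus strand) held no match within these bases. Among 32851 promoter windows of the same length, 8.59% held at least 1 match and 0.670% held 2 or more. A match is a run of letters and not a measured binding site. The window is shown because Acta2 is the defining gene of the set.

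No gene of the 8 was called higher or lower in NEKO kidneys by limma at an adjusted p of 0.05, against 0.225% of all 19593 genes and transcripts called in either direction, 0.097% higher and 0.128% lower. At an unadjusted p of 0.05, 2 of the 8 were higher (Pdgfrb and Pdgfra) and none was lower, where 7.37% of all tested were higher and 10.6% lower. By the methods' unpaired test with unequal variances none of the 8 passed after adjustment, beside 0.0051% of all tested. Without adjustment 1 of the 8 was higher (Pdgfrb) and none lower, beside 743 higher and 882 lower of the 13570 named genes. The receptors and Cnn1 had the largest positive differences, Myh11, Acta2 and Actg2 smaller ones, and Des and the brighter probe of Tagln negative ones. In none of the 8 did all NEKO mice lie above or below all controls, a pattern seen in 9.21% of all tested (3.88% above and 5.33% below). The median difference of the 8 genes was 0.33, beside -0.03 over all tested.

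**Figure D1:**
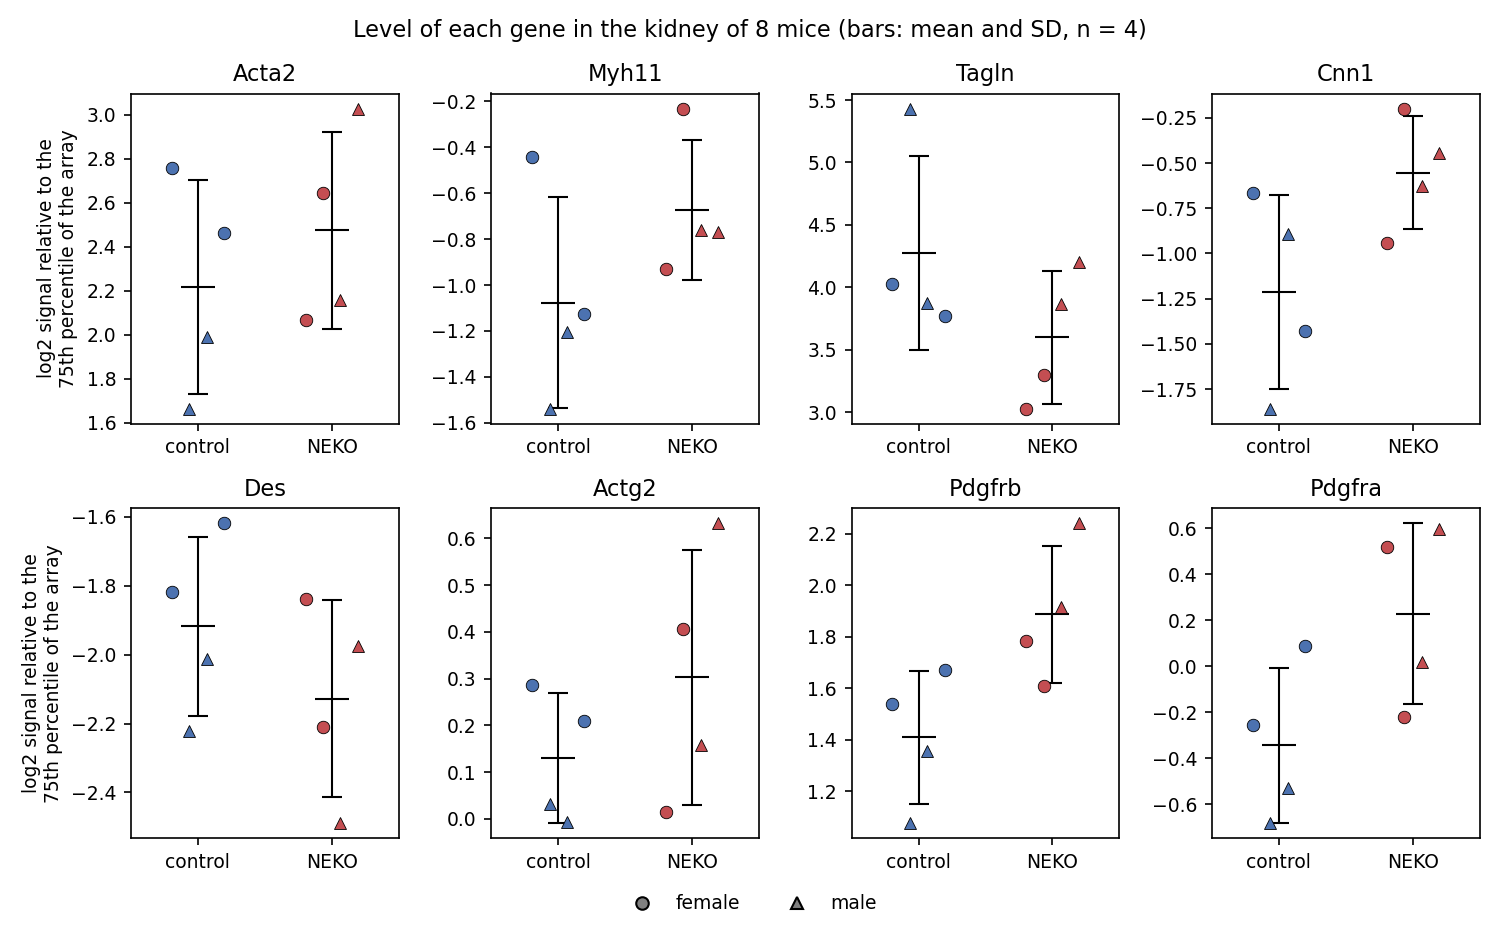
Level of each of the 8 genes (log2 signal less the array's 75th percentile, vertical axis, separate scale in each panel) in 4 control and 4 NEKO mice, circles for females and triangles for males, with the mean and SD of each group of 4. The groups overlap in every panel, 3 of 4 NEKO mice lie above all controls for Cnn1 and Pdgfrb, and control male replicate 4 stands at 5.43 for Tagln.

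The PDGF receptors had the lowest unadjusted p-values of the set by limma, but neither was called. Pdgfra was little apart from Cnn1, with adjusted p of 0.27 and 0.29 by limma. The level of Pdgfrb was 1.54 and 1.67 in the control females and 1.07 and 1.35 in the control males. In NEKO mice it was 1.78 and 1.61 in the females and 1.91 and 2.24 in the males. Thus 3 of 4 NEKO mice lay above all controls, and only a female, replicate 3, fell among them. The difference was 0.48 on the log2 scale (SE 0.18, 95% interval 0.05 to 0.91), or 1.39-fold, with an adjusted p of 0.24 by limma and p = 0.057 by a two-sided exact permutation test over mice, for which the smallest possible p is 0.0286.

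Pdgfra, read from the brighter of its probes, was at -0.26 and 0.09 in the control females and at -0.68 and -0.53 in the control males. In NEKO mice it was at 0.52 and -0.22 in the females and at 0.02 and 0.59 in the males. The higher female and the higher male of the NEKO group lay above all controls and the other two NEKO mice did not. The difference was 0.57 (SE 0.24, 95% interval 0.01 to 1.13), 1.49-fold, with an adjusted p of 0.27 by limma and an exact permutation p of 0.114. The dim second probe of Pdgfra was well above background on 1 control and 4 NEKO arrays, and read from -5.67 to -5.21 in controls and from -5.00 to -4.68 in 3 of the NEKO mice, with NEKO male replicate 5 at -5.20. It met the filter only through the NEKO arrays, so no difference or test is given for it. The 2 probes of Pdgfra had a Pearson r of 0.67 over the 8 mice.

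Among the PDGF ligands, 4 of 4 were tested and none was called. At an unadjusted p of 0.05, 2 were higher and none lower, beside 7.37% and 10.6% of all tested. Pdgfa, a ligand of Pdgfra, differed by 0.33 (SE 0.12, adjusted p = 0.21 by limma) and Pdgfc, which also binds Pdgfra, by 0.29 (SE 0.09, adjusted p = 0.20 by limma). Pdgfd, a ligand of Pdgfrb, differed by -0.53 with an SE of 0.40 and overlapped between groups, at -4.79 to -3.25 in controls and -5.14 to -3.29 in NEKO mice.

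The smooth muscle actins showed small differences that varied among mice of 1 group. On the brightest of its 3 probes, Acta2 was at 2.76 and 2.46 in the control females and at 1.67 and 1.99 in the control males. In NEKO mice it was at 2.07 and 2.65 in the females and at 2.16 and 3.03 in the males. Only NEKO male replicate 6 lay above all controls. The difference was 0.26 (SE 0.29, 95% interval -0.44 to 0.95, adjusted p = 0.66 by limma), and without that mouse it was -0.02. It was 0.09 without control male replicate 4, 0.42 without the K1 female and 0.47 without NEKO female replicate 2. The other 2 probes of Acta2 gave 0.28 and 0.23, and the probes correlated with each other at r of 0.89 to 0.98 over the 8 mice, so the spread was shared by all 3. The brightest probe was printed in 10 spots, whose SD on an array was 0.04 to 0.06, while the SD between mice was 0.49 in controls and 0.45 in NEKO mice.

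Actg2, the enteric smooth muscle actin, was at 0.29 and 0.21 in the control females and at 0.03 and -0.01 in the control males. It was at 0.02 and 0.41 in the NEKO females and at 0.16 and 0.63 in the NEKO males. A female and a male of the NEKO group exceeded all controls, and the other two did not. The difference was 0.17 (SE 0.15, 95% interval -0.19 to 0.53, adjusted p = 0.57 by limma), which was 0.04 without NEKO male replicate 6 and 0.29 without NEKO female replicate 2.

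The actins are close relatives in sequence, and their probes may share signal. The genes most like Acta2 over the 8 mice, out of 13518 named genes compared, were Actc1 and Acta1, the cardiac and skeletal actins, with r of 0.99 each, and Ms4a6c with r of 0.95. The differences of Actc1 (0.16), Acta1 (0.24) and the cytoplasmic Actg1 (0.25) were of the size of that of Acta2, and whether the probes cross-hybridise was not tested. Of 15 striated muscle genes, 7 (Ckm, Mb, Myh1, Myh2, Myh4, Myh6 and Tnnt3) were not above background on any array, while 6 passed the filter, Actc1 and Acta1 among them. The summed level of all 15 striated genes, dim ones included, in multiples of the 75th percentile, was 0.905 to 1.76 in controls and 1.06 to 1.67 in NEKO mice.

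Myh11, the myosin heavy chain, was at -0.44 and -1.12 in the control females and at -1.54 and -1.21 in the control males. In NEKO mice it was at -0.93 and -0.23 in the females and at -0.76 and -0.77 in the males. The K1 female was the highest control and exceeded 3 of the NEKO mice. The difference was 0.40 (SE 0.22, 95% interval -0.11 to 0.92, adjusted p = 0.36 by limma).

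Cnn1, calponin, was at -0.67 and -1.43 in the control females and at -1.86 and -0.89 in the control males. It was at -0.94 and -0.20 in the NEKO females and at -0.63 and -0.45 in the NEKO males. Here 3 of 4 NEKO mice lay above all controls, of which the K1 female was again the highest. The difference was 0.66 (SE 0.29, 95% interval -0.02 to 1.34), 1.58-fold, with an adjusted p of 0.29 by limma and an exact permutation p of 0.114. It was 0.43 without control male replicate 4, the lowest of the controls.

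Des was at -1.82 and -1.62 in the control females and at -2.22 and -2.01 in the control males. It was at -1.84 and -2.21 in the NEKO females and at -2.49 and -1.98 in the NEKO males. The groups overlapped for all but NEKO male replicate 5, the lowest mouse. The difference was -0.21 (SE 0.15, 95% interval -0.56 to 0.14, adjusted p = 0.48 by limma). Leaving out that mouse gave -0.13, leaving out NEKO female replicate 3 gave -0.12 and leaving out NEKO male replicate 6 gave -0.33.

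**Figure D2:**
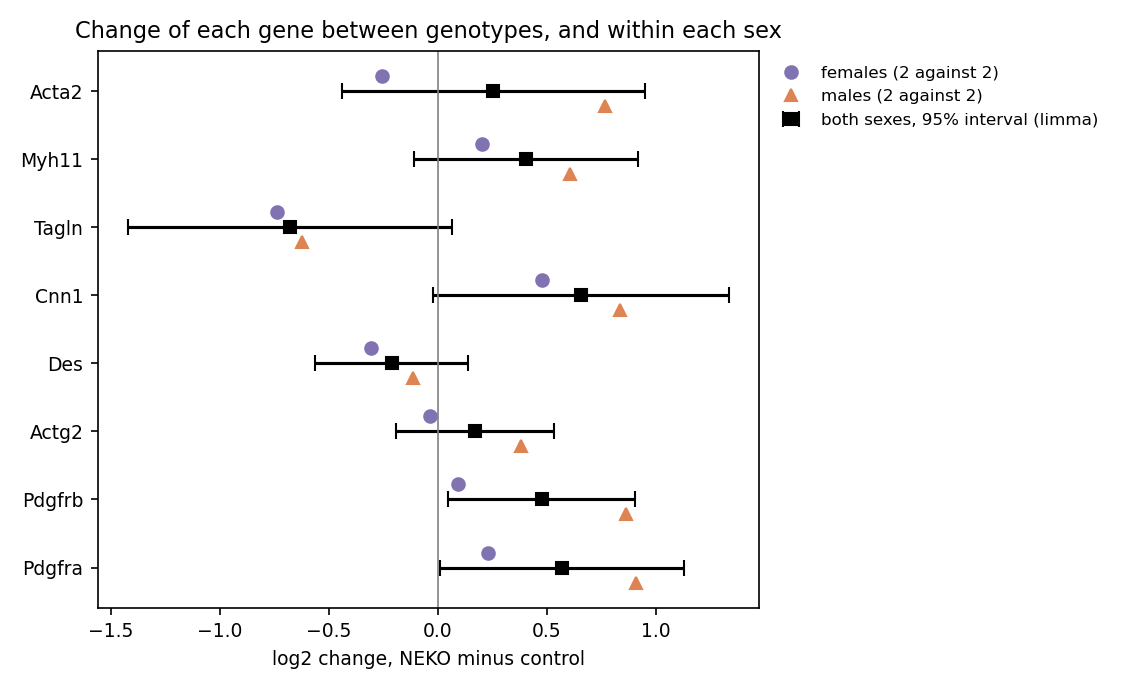
Log2 difference between NEKO and control mice (horizontal axis) for each gene, as squares with the 95% interval from limma over both sexes, and as circles and triangles within females and males (2 mice against 2). The intervals of Pdgfrb and Pdgfra end at 0.05 and 0.01 above 0, the other 6 cross 0, and for each gene the male point lies to the right of the female point.

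Tagln was the gene for which the answer depended on the probe. On the brighter probe, transgelin was at 4.02 and 3.77 in the control females and at 5.43 and 3.88 in the control males. In NEKO mice it was at 3.03 and 3.30 in the females and at 3.86 and 4.20 in the males. Both NEKO females lay below all controls, both NEKO males lay among them, and control male replicate 4 stood far above the rest. The difference was -0.68 (SE 0.31, 95% interval -1.42 to 0.06, adjusted p = 0.31 by limma), and -0.38 without that control.

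The dimmer probe of Tagln gave the opposite sign, and all 8 arrays measured it well above background. It was at 0.46 and 0.66 in the control females and at 0.07 and 0.23 in the control males, and control male replicate 4, the highest mouse on the brighter probe, was here the lowest. In NEKO mice it was at 0.39 and 0.49 in the females and at 0.29 and 1.49 in the males. The difference was 0.31 (adjusted p = 0.60 by limma over all probes), and with both probes averaged Tagln differed by -0.18. Over the 8 mice the 2 probes had a Pearson r of -0.12. The dimmer probe followed Acta2 (r = 0.82), Actg2 (0.86) and Pdgfrb (0.79), whereas the brighter probe had a negative r with each of the other 7 genes, from -0.61 with Cnn1 to -0.07 with Actg2. Without the 2 mice farthest from the median of Tagln, the r of the brighter probe was -0.20 with Cnn1 and 0.16 with Actg2. It was then 0.26 with Des, 0.44 with Pdgfrb and 0.45 with Pdgfra. The 2 probes of Tagln differ in sign, so neither direction is given for it.

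**Figure D3:**
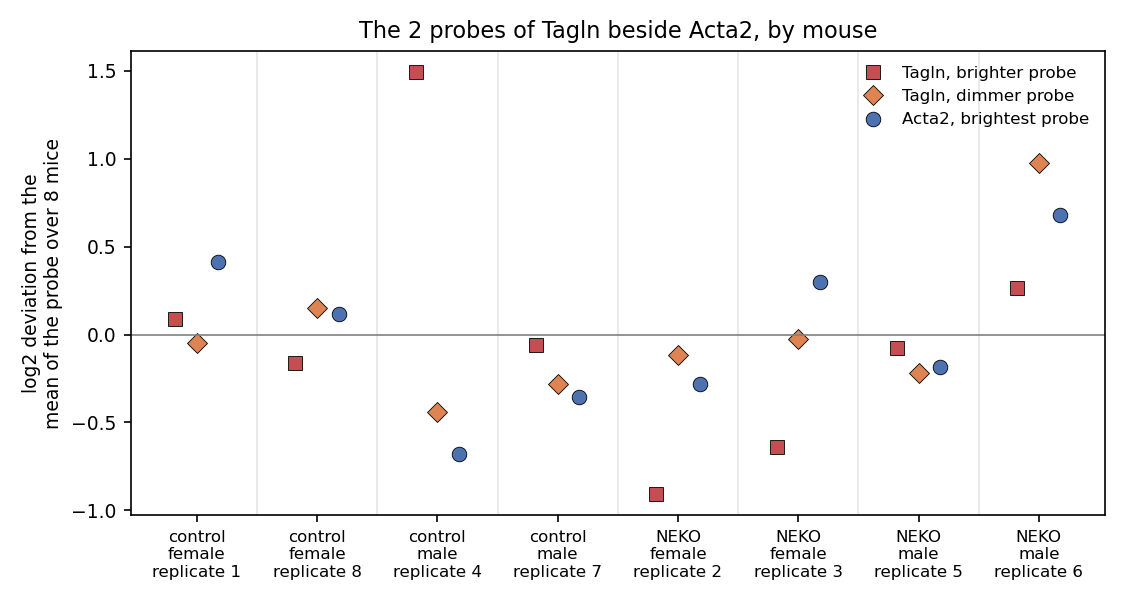
Deviation of each mouse from the mean of a probe over the 8 mice (log2, vertical axis) for the brighter and the dimmer probe of Tagln and the brightest probe of Acta2, with the mice along the horizontal axis by group and sex. In control male replicate 4 the brighter Tagln probe (level 5.43) is far above its mean while the dimmer probe (0.07) and Acta2 (1.67) are below theirs, and in NEKO male replicate 6 the dimmer probe (1.49) and Acta2 (3.03) are highest.

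Some of the 8 genes varied together from mouse to mouse. Of the 28 pairs among them, read from 1 probe each, 19 had a positive Pearson r and 11 an r above 0.5. By a two-sided exact permutation test over the 8 mice, 3 pairs had an adjusted p under 0.05 over the 28 pairs. The test shuffled the mice freely across genotype and sex, so a group shift shared by a pair can also lower its p. Acta2 and Actg2 had r = 0.91 (exact permutation p = 0.0013, adjusted 0.035; Spearman's rho 0.90, adjusted p = 0.064), and r stayed at 0.91 without the 2 mice farthest from the median of Acta2. Pdgfrb and Pdgfra had r = 0.90 (exact permutation p = 0.0025, adjusted 0.035; rho 0.93, adjusted p = 0.062), which was 0.77 without 2 mice. Myh11 and Cnn1 had r = 0.88 (exact permutation p = 0.0038, adjusted 0.036; rho 0.83, adjusted p = 0.14), which was 0.65 without 2 mice.

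After each mouse was expressed as its deviation from the mean of its genotype and sex, the r of the 3 pairs was 0.92, 0.83 and 0.91. With 2 mice of each genotype and sex, the deviations of a pair mirror each other, and these r rest on 4 independent values. With 4 mice on each slide, no relation was computed within a slide. Des was nearly unrelated to the receptors over the 8 mice (r of 0.05 with Pdgfrb and 0.31 with Pdgfra), and the r of its deviations with theirs, again over 4 independent values and given as a description, was 0.94 and 0.95. The actin pair may share signal between its probes, as stated above.

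**Figure D4:**
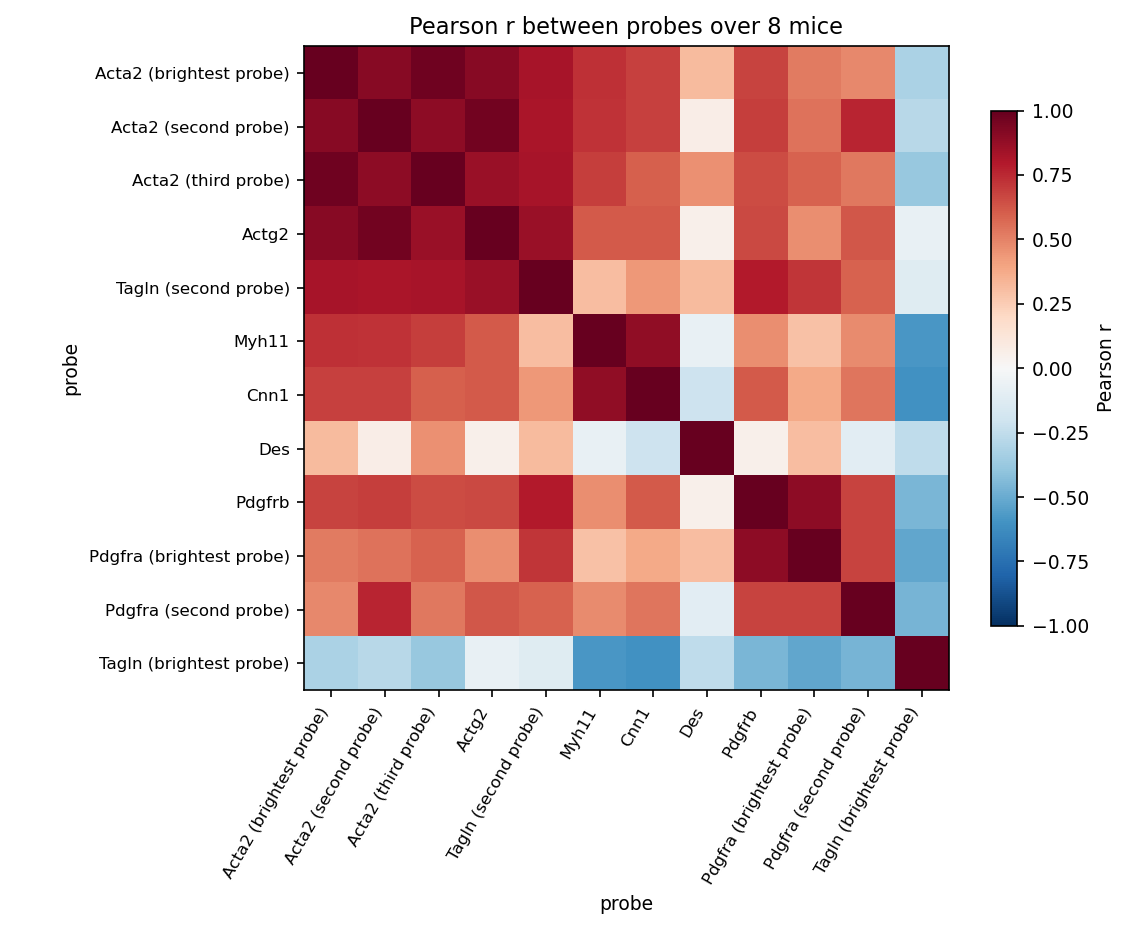
Pearson r over the 8 mice (colour, blue negative and red positive) between the 12 probes of the 8 genes, named on both axes. The 3 probes of Acta2, Actg2 and the dimmer probe of Tagln form a block of high r, Myh11 pairs with Cnn1 (0.88) and Pdgfrb with Pdgfra (0.90), and the brighter probe of Tagln is negative with every other probe.

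For each of the other genes, the most similar among 13518 named genes over the 8 mice were Gja5, Dcaf12l2 and Slc35e4 for Myh11 (r of 0.96 to 0.98), Ccnyl1, Araf and Hey1 for Cnn1 (0.95 to 0.99), and Etv3, Rbfox1 and Timp4 for Des (0.95 to 0.98). They were Tubb2a, Csf2rb2 and Col4a2 for Actg2 (0.94 to 0.96), Socs3, Nid1 and Slc37a2 for Pdgfrb (0.99 each), and Trim6, Rftn2 and Cnrip1 for Pdgfra (0.97 to 0.98). The brighter Tagln probe was most like Ptpn22, Epha3 and Fam110a (0.94 to 0.97). With 8 mice and so many genes, values of this size are a ranking and carry no test.

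The difference between NEKO and control mice was more positive in males than in females for each of the 8 genes, a direction shared by 50.3% of all tested. The median difference was 0.03 in females and 0.69 in males, beside -0.03 in each sex over all tested. For Pdgfrb it was 0.09 in females and 0.86 in males, for Pdgfra 0.23 and 0.91, and for Acta2 -0.25 and 0.77. The smallest gap was that of Tagln on its brighter probe, at -0.74 and -0.62. By the interaction of sex and genotype in limma, none of the 8 passed an adjusted p of 0.05, where 0.0153% of all tested did. At an unadjusted p of 0.05 only Pdgfrb passed (0.77, SE 0.23, adjusted p = 0.30 by limma), beside 10.5% of all tested (6.87% with the effect higher in males and 3.65% lower), and for Acta2 the gap of 1.02 had an SE of 0.47 (adjusted p = 0.53 by limma).

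The sexes differed among the controls themselves. The mean of the 2 control males lay below that of the 2 control females for 7 of the 8 genes, by amounts from -0.78 for Acta2 to -0.23 for Actg2. It lay above it for Tagln on the brighter probe (0.76), where control male replicate 4 read 5.43 and the other control male 3.88, among the females. On the dimmer probe of Tagln the gap was -0.41. Among NEKO mice the males were above the females for Acta2 (0.24), Actg2 (0.18), Pdgfrb (0.38), Pdgfra (0.16) and Cnn1 (0.03), as also for Tagln on the brighter probe (0.87), and below them for Myh11 (-0.18) and Des (-0.21). These are means of 2 mice, and the male and female arrays were on different slides. Of the control females 1 was the K1 mouse without Cre, while both control males were K1Cre, so sex and control genotype are partly mixed. For Cnn1 the K1Cre female (-1.43) lay between the control males (-1.86 and -0.89). Without the K1 female the interaction went from 0.36 to -0.02 for Cnn1 and from 0.40 to 0.06 for Myh11. It went from 1.02 to 0.87 for Acta2, from 0.77 to 0.84 for Pdgfrb and from 0.68 to 0.85 for Pdgfra.

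The partners of the 8 genes in contraction also had higher median differences in males than in females. Of 19 further genes of the contractile apparatus, 18 were tested and none was called by limma. At an unadjusted p of 0.05, 3 were higher and 2 lower, beside 7.37% and 10.6% of all tested. The median difference of the 18 was 0.24, being -0.03 in females and 0.42 in males, and 17 of them were more positive in males. The largest differences were those of Ppp1r12b, Pln and Pgm5. Ppp1r12b, a targeting subunit of myosin phosphatase, differed by -0.98 (SE 0.34, adjusted p = 0.21 by limma). Pgm5, a protein of adherens-type junctions in muscle, differed by -0.64 (SE 0.15, adjusted p = 0.12 by limma). Pln, phospholamban, which restrains the calcium pump of the sarcoplasmic reticulum, differed by 0.65 and is among the 3 counted as higher. It was well above background on 2 control and 4 NEKO arrays, so its size is uncertain and no p-value is given. Ppp1r12b was at -1.27 to -0.89 in controls and at -3.13 to -1.49 in NEKO mice, so that all NEKO mice lay below all controls, as they did for 5.33% of all tested.

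Of 10 regulators of smooth muscle transcription, 7 were tested, and Myocd, Tbx18 and Foxf1 were not above background on any array. None was called, and 2 were higher at an unadjusted p of 0.05, beside 7.37% of all tested. They were Gata6 at 0.63 (SE 0.23, adjusted p = 0.23 by limma) and Tshz3 at 0.53 (SE 0.18, adjusted p = 0.20). Both are transcription factors that act in smooth muscle development. Klf4, a factor known to turn down contractile genes, differed by 0.44 (SE 0.25, adjusted p = 0.39). The median of the 7 was -0.09 in females and 0.43 in males.

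The cells that carry the PDGF receptors were represented by 2 lists. Of 12 pericyte and mesangial genes 10 were tested and none was called, with 5 higher and 1 lower at an unadjusted p of 0.05, beside 7.37% and 10.6% of all tested. Abcc9, a subunit of the potassium channel of mural cells, differed by 0.95 (SE 0.18, adjusted p = 0.083 by limma), Rgs5, a regulator of G-protein signalling in pericytes, by 0.89 (SE 0.33, adjusted p = 0.24), and Itga8, an integrin of mesangial cells, by 0.69 (SE 0.26, adjusted p = 0.24). Rgs5 differed by 0.08 in females and 1.69 in males. Abcc9 overlapped between groups, at -2.13 to -0.75 in controls and -1.48 to 0.30 in NEKO mice. Of the 10 genes 8 were positive and 2 negative, Higd1b (-0.54, SE 0.18, adjusted p = 0.20 by limma) and Agtr1a (-0.06). Kcnj8, of the same channel as Abcc9, differed by 0.09. The summed level of the 11 genes of the list with a probe was 15.7 to 17.4 in controls and 16.1 to 24.1 in NEKO mice.

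Of 17 fibroblast and myofibroblast genes, 14 were tested and none was called. At an unadjusted p of 0.05, 3 were higher and 1 lower, beside 7.37% and 10.6% of all tested. The median difference of the 14 was -0.12 in females and 1.31 in males, and 13 of them were more positive in males. At an unadjusted p of 0.05 the interaction of sex and genotype passed for 10 of the 14, beside 10.5% of all tested, and none passed after adjustment. Fn1, fibronectin, differed by 1.07 (SE 0.32, adjusted p = 0.18 by limma), Thy1, a surface protein of fibroblasts, by 1.03 (SE 0.50, adjusted p = 0.33), and Lum, a collagen-binding proteoglycan, by 0.84 (SE 0.41, adjusted p = 0.32). The difference of Thy1 was -0.22 in females and 2.29 in males. Nt5e was the 1 negative gene of the 14, at -0.57 (SE 0.20, adjusted p = 0.21 by limma). The summed level of the 16 genes of the list with a probe was 35.0 to 53.2 in controls and 40.0 to 102 in NEKO mice.

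Of 15 genes of the TGF-beta pathway, a main inducer of Acta2 in fibroblasts, all were tested and none was called. At an unadjusted p of 0.05, 3 were higher and none lower, beside 7.37% and 10.6% of all tested. Ccn2, a matricellular protein, differed by 0.58 (SE 0.24, adjusted p = 0.28 by limma), and Tgfbi, an extracellular matrix protein, by -0.50 (SE 0.24, adjusted p = 0.32). Their median was 0.06 in females and 0.25 in males.

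**Figure D5:**
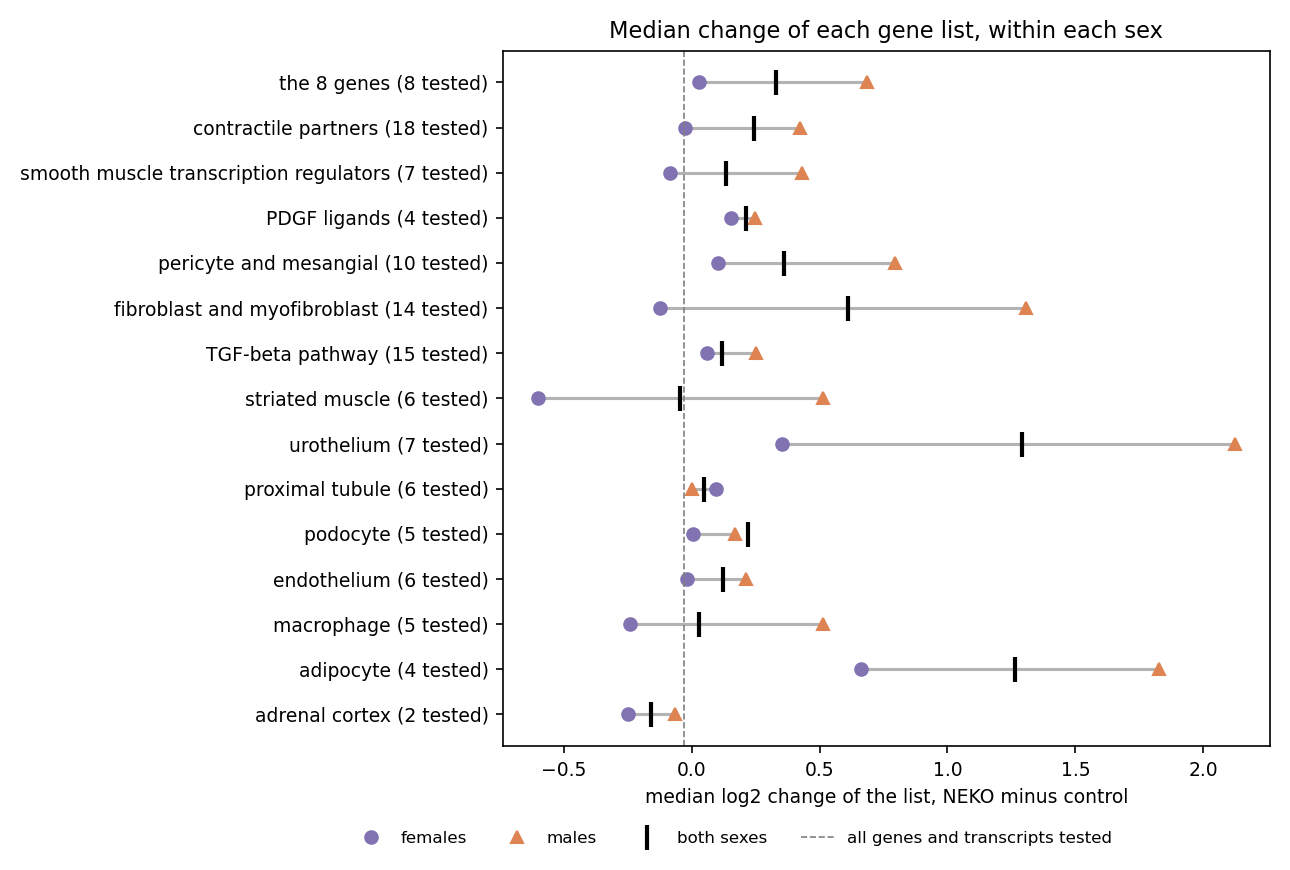
Median log2 difference between NEKO and control mice (horizontal axis) of the 8 genes and of 14 gene lists, over females (circles), males (triangles) and both sexes (bars), with the median of all tested as a dashed line at -0.03. The male median is to the right of the female median for all lists but that of the proximal tubule, and the widest gaps are those of urothelium (0.35 and 2.12) and fibroblasts (-0.12 and 1.31).

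Markers of other tissue in the sample are given beside the 8 genes, and their part in the differences was not tested. Of 8 urothelial genes 7 were tested and none was called. At an unadjusted p of 0.05, 5 were higher and none lower, beside 7.37% and 10.6% of all tested. The summed level of the urothelial genes was 1.25 to 3.18 in controls and 2.69 to 6.15 in NEKO mice. Krt5 (1.85), Upk2 (1.80) and Krt20 (1.37) had the largest differences. Of the 7, 6 were positive and Upk1a was negative (-0.71). All NEKO mice lay below all controls for Upk1a, as for 5.33% of all tested, and above them for 2 of the 7, as for 3.88%. Of 5 adipocyte genes 4 were tested, and Lep was not above background on any array. The summed level of all 5 was 22.4 to 55.3 in controls and 33.1 to 67.8 in NEKO mice. Proximal tubule genes had summed levels of 428 to 571 in controls and 484 to 570 in NEKO mice, endothelial genes 22.8 to 27.1 and 24.7 to 26.7, and macrophage genes 4.09 to 5.29 and 3.49 to 6.49. The podocyte list had a median difference of 0.22 and summed levels of 11.2 to 118 and 5.41 to 11.6, and its Synpo differed by -2.45 (SE 0.74, adjusted p = 0.18 by limma). For the 4 adrenal cortex genes with a probe, of which 2 were tested, the summed levels were 0.211 to 0.268 and 0.189 to 0.234.

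Across the 14 lists 109 of 133 genes were tested, and the 1 called was Myh7, the slow and cardiac myosin heavy chain, on the striated muscle list. Its measured level was -3.90 to -3.74 in controls and -7.33 to -5.99 in NEKO mice. It was well above background on 4 control arrays and on no NEKO array. With no NEKO level taken below that of the dimmest probe well above background on its array, it was 2.91-fold lower in NEKO mice. It met the filter only through the controls, so no p-value is given and the call is not read as a test. It was not tested, and so not called, where all 8 arrays had to measure it. A probe not well above background can also lie above that dimmest level, so 2.91 is not a strict lower bound. Myh11, the smooth muscle relative of Myh7, had a positive difference in both sexes, 0.20 in females and 0.61 in males.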

How the data were processed

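Total RNA from 8 kidneys was labelled with Cy3 and hybridised to Agilent mouse arrays of design 014868. The authors deposited the scanner output of Feature Extraction 10.7.3.1 (protocol GE1_107_Sep09, annotation build mm9), in which the processed intensity of each spot is background-subtracted and the median intensity is raw, and a matrix of log2 values. Any further upstream steps are not given in the sources used here. From the deposited intensity, spots of 1 probe were averaged after outlier spots were left out, log2 was taken, and the 75th percentile of non-control probes was subtracted on each array. Of 41174 probes, 26690 were named through RefSeq accessions (GRCm38.p6 table; 18217 genes). A gene was read from its brightest probe on average and tested where that probe was well above background on at least 4 of 8 arrays. limma 3.58.1 in R 4.3.3 was fitted to all 19593 with genotype and sex, and in a second model with their interaction, with Benjamini-Hochberg adjustment, and was tested on simulated data. Adjusted p-values without another name are from limma. Summed levels are sums of linear values relative to the percentile, over every gene of a list with a probe, tested or not. Named are the 8 genes, the called genes of the lists and the 3 genes most similar to each of the 8. The 3 genes with the largest difference are named for the contractile, regulator, PDGF ligand, pericyte, fibroblast, TGF-beta and urothelial lists. For striated muscle and podocytes they are named only in part. For proximal tubule, endothelium, macrophages, adipocytes and adrenal cortex they are not named, whatever their size. Actg1, Upk1a, Higd1b, Agtr1a, Kcnj8, Nt5e and genes not above background were added after their values were seen. A gene that this rule names is not reported here. Alternatives covered background correction, normalization, the filter, the choice of probe, the model, the deposited matrix and each mouse left out. These genes and lists were chosen with earlier results of these data known. Nothing in the labels says more of how the mice were sampled, so p-values measure the spread between these samples, and the number of arrays limits the precision.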

Additional observations from a re-analysis of the deposited data

Results flagged for a closer look

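Both probes of Tagln held a mouse far from the other 3 of its group. On the brighter probe, control male replicate 4 read 5.43 while the other controls read 3.77 to 4.02, a gap of 0.849 of the range of the group. On the dimmer probe, NEKO male replicate 6 read 1.49 while the other NEKO mice read 0.29 to 0.49, a gap of 0.838 of the range. Both exceed the critical value of Dixon's test for 4 samples. Over the 12 probes, 24 groups were looked at, and chance alone flags about 1 in 20 groups. The mouse that stood apart on 1 probe of Tagln did not stand apart on the other.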

How the results depend on the processing

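No paired analysis was possible because the replicate numbers run from 1 to 8 over both groups and no number is shared. The number of the 8 genes called stayed at 0 in each direction under all alternatives but the methods' t-test without adjustment, which called 1 higher (Pdgfrb). That setting called 743 of the 13570 named genes higher and 882 lower. For the genes of the 14 lists, 0 were called higher and 1 lower. Counts of higher calls were 6 with the interaction in the model and the effect taken as the mean of both sexes, 12 by the methods' t-test without adjustment, and 0 to 1 when each mouse was left out (1 without control replicate 1). Counts of lower calls were 0 where all 8 arrays had to be well above background, 0 by the methods' t-test with adjustment and 2 without. The difference of Acta2 reversed, at -0.020 to 0.47 over the leave-one-out fits. The difference of Tagln was 0.31 on its other probe, an alternative chosen after seeing the data. The interaction of sex and genotype reversed in leave-one-out fits of Tagln (-0.66 to 0.89), Cnn1 (-0.12 to 0.84) and Des (-0.068 to 0.45). The causes were not tested. Every other difference of the 8 genes kept its sign under the 22 settings tried, with adjusted p from 0.10 (Pdgfrb) to 0.91 (Actg2). Over all named genes, 15 were called higher and 23 lower, and 0 to 204 and 1 to 208 under the alternatives with adjustment. With 4 mice a group, differences of the size of those of the 8 genes were not separable from the spread between mice.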
